A study of Mus musculus with 5 samples.

Results

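Integrins are surface receptors made of an alpha and a beta chain that anchor leukocytes to other cells and to the matrix. The transcripts of 10 chains that leukocytes use were examined, chosen by gene symbol: Itgae, Itgb7, Itga4, Itgb1, Itgal, Itgb2, Itga1, Itga2, Itga6 and Itgb3. All 10 symbols were among the 24417 named genes of the count table. Of these chains 9 had counts and passed the filter on low counts, with at least 42 counts in every library. Itgal was listed at 0 in all libraries and could not be tested.

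The libraries came from T cells sorted from the colon lamina propria of mice whose strain name joins a Foxp3DTR-GFP allele with a loxp-Thy1.1-STOP-loxp-GFP allele. Both groups share this genotype and tissue. The Treg group (n = 2) held cells positive for Foxp3-DTR-GFP, which use the allele without the stop signal. The group labelled reporter-null (n = 3, called null here) held Thy1.1-positive cells, in which the active Foxp3 allele carries a stop signal between loxP sites. The description of null replicate 1 names the numbers 1 and 4, which may mean a pool. No treatment is named in the labels, and ages, sexes and the number of animals are not given there. The p-values thus rest on variation among these libraries alone, part of which may be technical. In such bulk samples fewer cells with a transcript and less transcript per cell cannot be told apart.

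CD103, the alpha E chain encoded by Itgae, pairs with beta 7 (Itgb7) and binds E-cadherin on epithelial cells. The same beta 7 chain pairs with alpha 4 (Itga4) to form the receptor for MAdCAM-1 on gut vessels, and alpha 4 with beta 1 (Itgb1) binds VCAM-1. LFA-1, made of alpha L (Itgal) and beta 2 (Itgb2), binds ICAM proteins during contacts with antigen-presenting cells and vessels. Alpha 1, alpha 2 and alpha 6 pair with beta 1 to bind collagens and laminins, and beta 3 (Itgb3) pairs with alpha v to bind vitronectin and related ligands.

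Total counts ran from 17670420 to 22395169 per library, and the 10 chains took 0.276% to 0.366% of them. Levels are CPM, the counts relative to a library size scaled for composition, and fold changes are given on the log2 scale for null relative to Treg libraries, with standard errors (SE). A gene was called at an adjusted p under 0.05 from the edgeR quasi-likelihood test, adjusted over all 14164 genes tested. Foxp3 stood at 764 and 770.0 CPM in Treg cells and measured 75.7, 80.7 and 81.3 CPM in the null libraries, which followed the labels. The sums over 10 T cell genes lay between 7460 and 8030 CPM in every library, but single genes shifted in opposite directions. Cd4 was 682 and 720 CPM in Treg cells against 1555, 1348 and 1271 CPM in null cells (0.99, adjusted p = 0.00796). Cd2 was 1272 and 1077 CPM against 444, 492 and 430 CPM (-1.37, adjusted p = 0.00186). The share called was 20%, beside 8.79% over all genes. For 8 of the 10 the groups did not overlap, beside 40.8% over all genes. The sums over 9 epithelial genes were 305 and 43.6 CPM in Treg replicates 1 and 2, compared with 23.1, 1340 and 26.9 CPM in null replicates 1, 2 and 3. Treg replicate 1 and null replicate 2 thus held the most epithelial RNA. Null replicate 2 also had the highest sum over 10 myeloid genes, 97.8 CPM against 18 to 50.5 CPM elsewhere. Its sum over 9 stromal and endothelial genes was 193 CPM, against 100 to 115 CPM elsewhere. The sums over 7 B and plasma cell genes were 1410 and 419 CPM in Treg cells and 382, 854 and 434 CPM in null cells. Most of these sums was Jchain, at 1333 and 392 CPM against 362, 807 and 416 CPM. Of the 6 genes of this list tested only Cd79b was called, a share of 16.7% beside 8.79% over all genes. Cd79b was 20.4 and 19.2 CPM in Treg cells against 7.42, 7.10 and 6.81 CPM in null cells (-1.47, adjusted p = 0.0046). The part of B and plasma cells in the integrin values was not tested.

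Among the 10 leukocyte integrin chains, CD103 stood apart. Itgae was 29.3-fold lower in null cells, Itga6 was 2.09-fold lower and Itgb3 was 3.15-fold higher, while the chains of the gut-homing receptor and the beta 2 chain were not called. Of the 9 chains tested, 3 (33.3%) were called, beside 8.79% of all genes tested. Only 1 was higher, where the share over all genes was 4.07%, and 2 were lower, where it was 4.72%. The groups did not overlap for these 3 chains and overlapped for the other 6, while over all genes they did not overlap for 40.8%. The median log2 fold change of the 9 chains was -0.08, beside 0.018 over all genes. The chains and the gene lists below were chosen with earlier results of these data known. Their shares called are thus no independent evidence.

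Itgae was measured at 531 and 553 CPM in Treg replicates 1 and 2, whereas the values were 18.4, 15.5 and 21.6 CPM in null replicates 1, 2 and 3. The 3 null libraries lay close together and far below both Treg libraries. The means were 542 ± 15.9 CPM (SD, n = 2) and 18.5 ± 3.09 CPM (SD, n = 3), a log2 difference of -4.87 (SE 0.166, adjusted p = 5.76e-05). In reads this was 9772 and 11962 counts against 340, 322 and 486, so depth did not limit the comparison. Of the CD8 T cell markers, which mark cells that can carry CD103, Cd8a was at or below 0.542 CPM in every library. Cd8b1 was 11.6 and 11.1 CPM in Treg cells and 5.42, 3.41 and 7.34 CPM in null cells, with groups that did not overlap (-1.08, SE 0.346, adjusted p = 0.118). The part of such cells in the Itgae value was not tested. The call held under all 14 alternative fits, with log2 fold changes from -5.00 to -4.77. The gene lies on chromosome 11 (GRCm38, 73090583 to 73147446, forward strand). Haspin, a gene on the opposite strand, lies within it and shares 0 exon bases with it in the GENCODE M21 annotation.

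Itgb7, the beta chain that CD103 needs to reach the surface, did not differ beyond the spread of the libraries. It stood at 1695 and 1993 CPM in Treg cells and measured 2006, 1705 and 1508 CPM in the null libraries. The ranges overlapped, and the log2 difference was -0.08 (SE 0.167, adjusted p = 0.831). Its sign turned under 3 of the alternatives, so no direction is given. Itga4, the other partner of beta 7, was 169 and 184 CPM in Treg cells against 205, 183 and 275 CPM in null cells. The groups overlapped by a small margin and null replicate 3 was highest (0.33, SE 0.186, adjusted p = 0.370). In the annotation 8.04% of the exon bases of Itga4 are shared with Cerkl on the opposite strand, and the strand setting of the counting is not given in the sources used here.

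The 250 bases before the transcription start of Itga4 and Itgb7 are shown because these are the chains of the gut-homing heterodimer that did not follow Itgae. They come from RefSeq (GRCm38.p6), 5′ to 3′ on the gene's strand. The window of Itga4 is chr2:79255176-79255425 on the forward strand and that of Itgb7 is chr15:102231936-102232185 on the reverse strand. Capitals mark matches, on either strand, to the RUNX words TGTGGT and TGCGGT, the SMAD word CAGACA and the forkhead word GTAAACA. RUNX and SMAD proteins carry TGF-beta signals to DNA, and Foxp3 is a forkhead protein.
Itga4: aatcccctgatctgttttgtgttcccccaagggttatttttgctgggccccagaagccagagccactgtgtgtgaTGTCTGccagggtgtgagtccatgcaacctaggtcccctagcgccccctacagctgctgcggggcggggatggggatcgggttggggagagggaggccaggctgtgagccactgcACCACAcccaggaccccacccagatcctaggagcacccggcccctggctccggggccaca
Itgb7: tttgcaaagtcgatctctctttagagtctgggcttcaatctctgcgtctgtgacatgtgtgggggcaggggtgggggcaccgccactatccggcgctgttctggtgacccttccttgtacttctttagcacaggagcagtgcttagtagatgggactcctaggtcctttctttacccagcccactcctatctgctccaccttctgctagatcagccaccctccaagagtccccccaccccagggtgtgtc
The Itga4 window held 1 RUNX match, 60 bases before the start, and 1 SMAD match, 175 bases before it, while the Itgb7 window held 0 matches. Over 32851 windows of this length 18.6% held a RUNX word, 17.1% the SMAD word and 3.17% the forkhead word. Such matches are letters only and say nothing about binding. Windows were found for 5 of the 10 chains (Itgb7, Itga4, Itgb1, Itga1 and Itga2), and Itgae, Itgal, Itgb2, Itga6 and Itgb3 had none.

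Within each library the alpha E chain was set against its partner. The log2 ratio of Itgae to Itgb7 counts was -1.68 and -1.85 in the Treg libraries and -6.77, -6.78 and -6.12 in the null libraries. The groups were separated by 4.79 on the log2 scale, with means of -1.76 ± 0.123 (SD, n = 2) and -6.56 ± 0.376 (SD, n = 3). The exact two-sided permutation p was 0.1, the smallest that 2 against 3 libraries allow, and 0.2 after adjustment over the 8 pairs compared. The ratio of Itga4 to the same beta chain was -3.33 and -3.44 in Treg cells and -3.29, -3.22 and -2.46 in null cells. All 3 null values lay above both Treg values, by little except in replicate 3 (difference 0.40, exact permutation p = 0.4).

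Levels were compared between genes per kilobase (kb) of the longest protein-coding transcript in GENCODE M21, 3845 bases for Itgae and 9767 for Itga4. On this scale Itgae made up 88.9% and 88.4% of the sum of Itgae and Itga4 in the Treg libraries. It made up 18.5%, 17.7% and 16.7% in the null libraries. Per kb Itgae was thus 8.0 and 7.64 times Itga4 in Treg cells, and Itga4 was 4.39, 4.65 and 5.0 times Itgae in null cells. Among transcripts for the alpha partners of beta 7, the more abundant one was alpha E in both Treg libraries and alpha 4 in all 3 null libraries. This order was the same in CPM not divided by length. Itgae was then 531 and 553 against 169 and 184 for Itga4 in Treg cells, and 18.4, 15.5 and 21.6 against 205, 183 and 275 in null cells. The sizes of the ratios depend on the lengths used, and the transcript forms present in these cells were not examined. Itgb7 exceeded the sum of both alpha chains in every library, by 4.07 and 4.57 times in Treg cells and by 29.0, 28.0 and 16.6 times in null cells.

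The order of the chains per kb in Treg cells was Itgb7 (687 ± 78.5 CPM per kb), Itgb2 (243 ± 8.84), Itgae (141 ± 4.1), Itgb1 (29.2 ± 5.36), Itga6 (25.6 ± 4.66), Itga4 (18.04 ± 1.1), Itgb3 (4.63 ± 0.624), Itga2 (1.17 ± 0.0926) and Itga1 (0.382 ± 0.0272). Only Itgb1 and Itga6 overlapped as neighbours. In null cells Itgae fell from the third place to the seventh, at 4.81 ± 0.802 CPM per kb, between Itga6 (12.2 ± 1.97) and Itga2 (1.38 ± 0.588). There the neighbours Itgb1 (26.3 ± 3.22) and Itga4 (22.6 ± 4.92) overlapped, as did Itgb3 (14.6 ± 0.445) and Itga6.

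**Figure D1:**
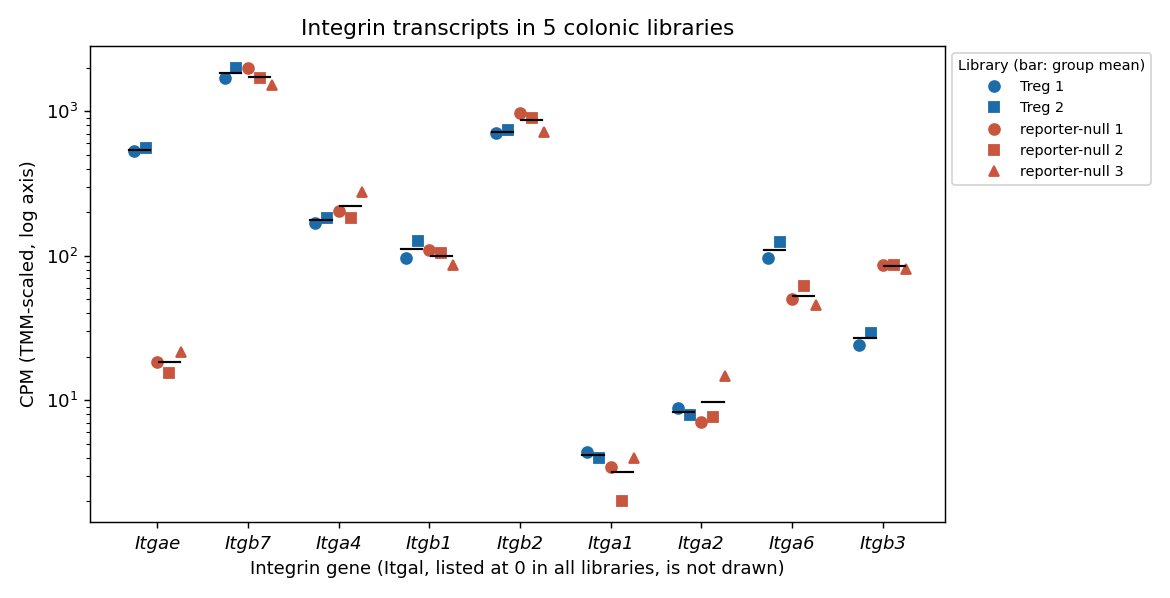
CPM (log axis) of 9 leukocyte integrin genes in each of 2 Treg (blue) and 3 null (red) libraries, with bars at the group means. Itgae lies at 531 and 553 CPM in Treg cells and at or below 21.6 CPM in all 3 null libraries, while Itgb7, Itga4, Itgb1, Itgb2, Itga1 and Itga2 overlap between groups.

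Itga6 and Itgb3 moved in opposite directions. Itga6 encodes alpha 6, a laminin receptor chain that forms heterodimers with beta 1 and, in epithelium, with beta 4. It stood at 96.1 and 124 CPM in Treg cells and measured 50.4, 62.1 and 45.6 CPM in the null libraries. Every null library lay below both Treg libraries, and the log2 difference was -1.07 (SE 0.175, adjusted p = 0.0139). The call on the Itga6 log2 fold change was lost without Treg replicate 1 (adjusted p = 0.0504), without Treg replicate 2 (0.107) or without null replicate 1 (0.0756), and its adjusted p spanned 2.99e-10 to 0.107 across alternatives. Null replicate 2, which held the most epithelial RNA, was the highest of its group. The log2 fold change was -1.24 without Treg replicate 1, -1.21 without null replicate 2 (adjusted p = 0.000403) and -1.37 without both, a fit that leaves 1 Treg library, assumed to vary like the null libraries (adjusted p = 2.99e-10). The part of epithelial, myeloid, stromal or endothelial RNA in the Itga6 value was not tested.

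Itgb3 encodes beta 3, which joins alpha v in the vitronectin receptor and alpha IIb on platelets. It was 24.2 and 29.3 CPM in Treg cells compared with 86.0, 85.9 and 81.5 CPM in the null libraries. The 3 null values were almost equal and about 3 times the Treg values (1.66, SE 0.133, adjusted p = 0.00101). The platelet chain Itga2b did not exceed 1.19 CPM in any library, Pf4 did not exceed 1.34 CPM and Ppbp 0.048 CPM. A list of 9 mast cell and platelet markers, these 3 among them, summed to 9.99 and 10.6 CPM in Treg cells and to 28.2, 40.4 and 16.1 CPM in null cells. Most of this sum was Kit, at 6.51 and 7.68 CPM against 26.7, 37.2 and 14.7 CPM (1.88, adjusted p = 0.0439). Kit was the 1 gene called of the 4 tested, a share of 25% beside 8.79% over all genes. The mast cell gene Cpa3 was 1.14 and 1.11 CPM against 0.379, 0.864 and 0.579 CPM. The part of such cells in the Itgb3 value was not tested.

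The chains of the other classical leukocyte integrins did not pass the test. Itgb2 was counted at 702 and 739 CPM in Treg cells and at 974, 903 and 718 CPM in null cells, where replicate 3 fell within the Treg range (0.26, SE 0.158, adjusted p = 0.396). Itgal, its partner in LFA-1, had 0 counts in each library although Itgb2 had 12935 to 18816. The floor of 3 counts corresponds to 0.133 to 0.163 CPM and covers counting error only. In all, 4583 named genes had no count in any library. Nothing is read from the value of Itgal.

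Itgb1 and the collagen receptor chains that pair with it were not called. Itgb1 was 97.0 and 126 CPM in Treg cells and 110, 105 and 86.3 CPM in null cells (-0.15, SE 0.163, adjusted p = 0.664), with overlapping groups and a sign that turned without Treg replicate 2 (0.05). Itga1 encodes the collagen receptor chain CD49a, a marker of some resident T cells. It was low, at 4.40 and 3.98 CPM against 3.47, 2.02 and 4.005 CPM (-0.40, SE 0.422, adjusted p = 0.656). Itga2, the CD49b chain of a further collagen receptor, was 8.80 and 7.86 CPM against 7.09, 7.63 and 14.6 CPM (0.23, SE 0.362, adjusted p = 0.781). Its highest library was null replicate 3, without which the log2 fold change was -0.18. In the annotation 3.68% of the exon bases of Itga1 are shared with the gene model Gm49395.

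Of the 4 alpha chains set against beta 1, Itga6 had the widest separation. The log2 ratio of Itga6 to Itgb1 was -0.01 and -0.02 in Treg cells and -1.12, -0.76 and -0.92 in null cells, a difference of -0.92 (exact permutation p = 0.1, 0.2 adjusted over the 8 pairs). The differences for Itga4, Itga1 and Itga2 against Itgb1 were 0.45, -0.31 and 0.30, with exact permutation p of 0.4, 0.7 and 0.8. For the last 2 pairs the groups overlapped.

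**Figure D2:**
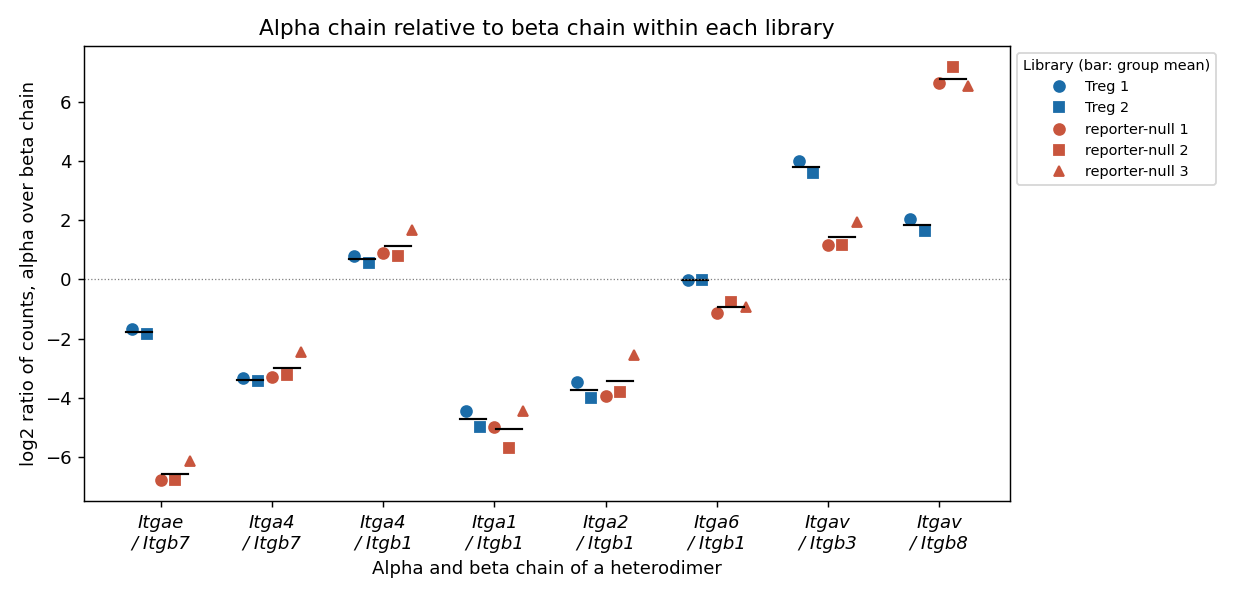
Log2 ratio of the counts of an alpha chain to those of a beta chain in each library, for 8 pairs that form heterodimers, with bars at the group means. Itgae to Itgb7 falls from about -1.76 to -6.56 and Itgav to Itgb8 rises from 1.84 to 6.77, while Itga4 to Itgb7 differs by 0.40.

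The other integrin chains were examined to place these 10. Of 17 further chains, 12 were tested, 1 was higher (Itga5), 1 was lower (Itgb8) and 10 were not called, a share called of 16.7% beside 8.79% over all genes, with a median of -0.18. Itgb8, which pairs with alpha v and releases active TGF-beta, was 94.8 and 114 CPM in Treg cells compared with 1.95, 1.296 and 3.43 CPM in the null libraries (-5.54, SE 0.388, adjusted p = 0.00162). Among the 21 integrin chains tested, Itgb8 and Itgae had the largest decreases, and no other was below -1.65. Itga5, the alpha chain of the fibronectin receptor, was 7.17 and 8.83 CPM against 23.6, 23.5 and 19.7 CPM (1.48, SE 0.195, adjusted p = 0.00595), and the call on the Itga5 log2 fold change needed Treg replicate 1 (adjusted p = 0.0631 without it).

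The alpha v chain Itgav, partner of beta 3, beta 5 and beta 8, was 390 and 356 CPM in Treg cells and 194, 191 and 314 CPM in null cells (-0.68, SE 0.235, adjusted p = 0.150). The groups did not overlap, yet null replicate 3 lay near the Treg libraries, and without it the adjusted p was 0.00877. Itgb5 was 36.5 and 76.7 CPM in Treg cells and 288, 260 and 165 CPM in null cells. Each null library was above both Treg libraries (2.07, SE 0.434), but the adjusted p was 0.0574. Over the alternatives that kept both Treg libraries it ran from 1.13e-07 (DESeq2) to 0.241 (replicate block by description number). The log2 ratio of Itgav to Itgb3 went from 3.80 ± 0.286 (SD, n = 2) to 1.42 ± 0.451 (SD, n = 3), and that of Itgav to Itgb8 from 1.84 ± 0.281 to 6.77 ± 0.36. Both pairs had the smallest exact permutation p possible, 0.1.

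Of the remaining chains tested, Itga9 was the most abundant at 66.6 to 81.9 CPM and was not called (-0.14, adjusted p = 0.553). Itga3 (-0.06), Itga7 (0.16) and the myeloid chains Itgam (-0.22), Itgad (-1.04) and Itgax (-1.65) were not called either, with adjusted p of 0.939, 0.903, 0.916, 0.553 and 0.337. Itgam, Itgad and Itgax did not exceed 2.35 CPM in any library. Of the Itgam exon bases in the annotation, 68.7% are shared with the gene model Gm49368 on the same strand. Itgad shares 7.32% with Gm17831 on the same strand and 8.6% with 4931431B13Rik on the opposite strand. The effect of these overlaps on the counts was not tested. The low Itgam value is thus not read as low expression. Itgb4, the epithelial partner of alpha 6, was 7.97 CPM in null replicate 2 and 0.134 to 1.68 CPM elsewhere, with a log2 fold change of 1.27 (adjusted p = 0.743) and of -1.65 without that library.

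**Figure D3:**
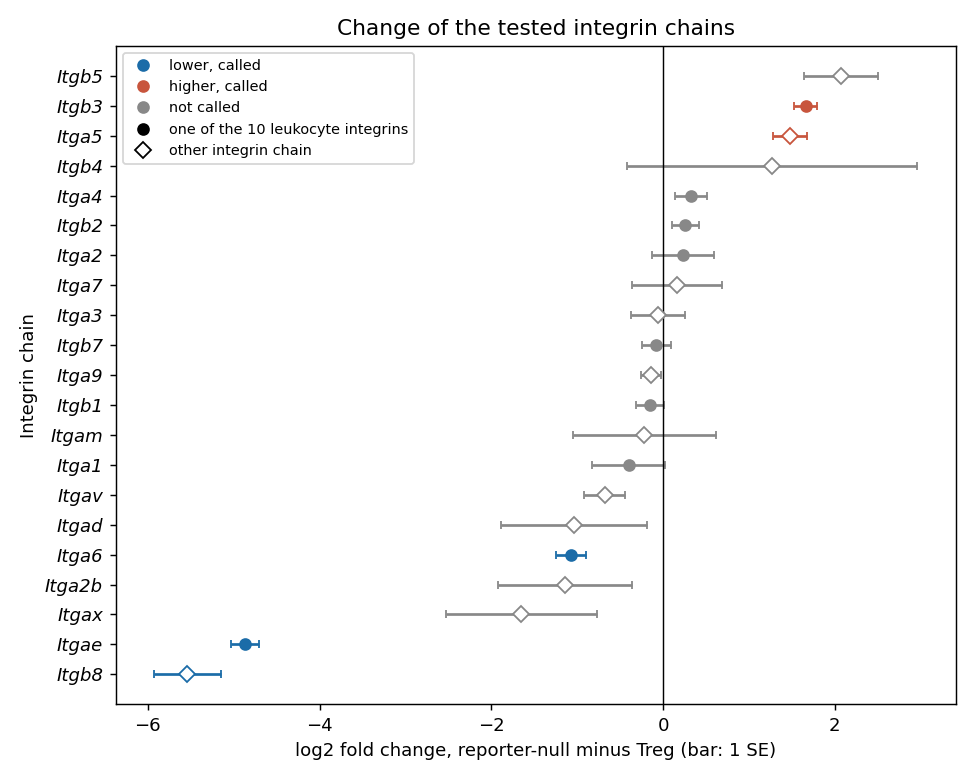
Log2 fold change (null minus Treg, bars 1 SE) of the 21 tested integrin chains, with the leukocyte integrins as filled circles and other chains as open diamonds. Itgb8 (-5.54) and Itgae (-4.87) lie far to the left, and Itgb3, Itga5 and Itgb5 lie between 1.48 and 2.07, of which Itgb5 was not called.

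TGF-beta is the main inducer of Itgae in T cells, acting through SMAD proteins, and RUNX3 also acts on the gene. In a list of 16 genes of this input 4 were higher in null cells, none was lower and 12 were not called, with a median of 0.17. The share called was 25%, beside 8.79% over all genes. Tgfbr2, the receptor chain that binds TGF-beta, was 187 and 187 CPM in Treg cells and 462, 495 and 398 CPM in null cells (1.27, SE 0.134, adjusted p = 0.00268). Tgfbr3, a co-receptor, was 1.47 and 3.38 CPM against 50.5, 42.5 and 57.7 CPM (4.36, adjusted p = 0.0024). Runx1 (0.65, adjusted p = 0.0166) and Runx3 (0.58, adjusted p = 0.0418) were higher too. Both calls were lost without Treg replicate 1, Treg replicate 2 or null replicate 1, and that of Runx3 also without both libraries described with the number 2. Runx3 was 106 and 104 CPM in Treg cells and 159, 174 and 138 CPM in null cells.

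Tgfbr1, the signalling receptor chain, had 48.9 and 85.8 CPM in Treg cells and 31.5, 28.9 and 37.4 CPM in null cells. The groups did not overlap (-1.05, SE 0.248), and the adjusted p was 0.0553. Tgfbr1 stayed uncalled in 6 of the 14 alternatives, while DESeq2 gave an adjusted p of 0.00234. With 1 library left out its log2 fold change ran from -1.39 to -0.58. Smad3 (-0.33, adjusted p = 0.345) and the inhibitor Smad7 (-0.24, adjusted p = 0.645) were not called.

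In a list of 20 activators and inhibitors of integrins 1 was higher, Flna, and none was lower, with a median of -0.10. That share of 5% was no higher than the 8.79% over all genes. Flna encodes filamin A, which links integrin tails to actin, and was 172 and 288 CPM in Treg cells against 610, 548 and 448 CPM (1.22, SE 0.252, adjusted p = 0.036). It lost that call without Treg replicate 1, null replicate 1 or null replicate 3. Tln1, which encodes talin (0.44, adjusted p = 0.234), and Fermt3, which encodes kindlin-3 of blood cells (-0.32, adjusted p = 0.24), were not called. Of 17 tested genes of signalling from bound integrins, Vcl was higher and Src and Actn1 were lower, a share of 17.6% beside 8.79%. Vcl encodes vinculin, a protein of adhesion sites, and was 15.2 and 15.9 CPM against 32.2, 35.7 and 38.5 CPM (1.19, adjusted p = 0.00544). Src differed by -1.03 (adjusted p = 0.0156) and Actn1, which encodes alpha-actinin, by -1.19 (adjusted p = 0.0193). All 3 calls were lost without Treg replicate 1 and without Treg replicate 2, and that of Actn1 also without null replicate 1.

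Of 20 tested ligands of integrins 1 was called, a share of 5% that did not exceed the 8.79% over all genes. It was Icam2, a ligand of LFA-1, at 31.3 and 33.6 CPM in Treg cells and 17.2, 16.6 and 14.3 CPM in null cells (-1.02, adjusted p = 0.0102). Cdh1, which encodes E-cadherin and was added after its values were seen, was 60.3 CPM in null replicate 2, the library with most epithelial RNA, and 0.324 to 10.4 CPM in the others (2.51, SE 1.94, adjusted p = 0.565). Of 12 genes for proteins that sit beside integrins in the membrane, 2 were higher and 1 was lower, a share of 25% beside 8.79%. Cd226, which associates with LFA-1, was higher (49.4 and 52.0 against 122, 113 and 163 CPM, 1.39, adjusted p = 0.00558) and the tetraspanin Cd81 was lower (-1.80, adjusted p = 0.0366). Thy1, the other higher gene of this list, includes the Thy1.1 marker for which the null cells were sorted. Its call is thus no independent result, although the share of 25% counts it. Treg cells had 18.8 and 21.4 CPM of Thy1. Reads of the marker and of the cells' own Thy1 gene cannot be told apart in these counts. No other gene of this list was called. The Icam2 call was lost without Treg replicate 1, Treg replicate 2 or null replicate 1, as was that of Cd81, and the call of Cd226 was lost without either Treg library. With no filter on low counts the Cd81 call was lost too (adjusted p = 0.0533).

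Of 14 tested genes that work with integrins in homing and retention, 3 were higher (Cxcr6, Ccr6 and Cd44), 3 were lower (Ccr7, Cxcr3 and S1pr1) and 8 were not called, a share of 42.9% beside 8.79% over all genes, with a median of -0.19. This list was written with the results for Cxcr6 and Cxcr3 known, so its share is no independent evidence. Ccr7 was 1639 and 1225 CPM against 420.2, 466 and 298 CPM (-1.86, SE 0.221, adjusted p = 0.00429). S1pr1, the receptor used to leave tissue, was 207 and 199 CPM against 103, 102 and 84.6 CPM (-1.07, SE 0.127, adjusted p = 0.00416). Ccr6 rose by 0.62 and Cd44, the hyaluronan receptor, by 0.65 in log2 units (adjusted p = 0.0248 and 0.0345). Both lost their calls without Treg replicate 1, Treg replicate 2 or null replicate 1, and Cd44 also without null replicate 3 or without both libraries described with the number 2. The calls of S1pr1 and Ccr7 were lost without Treg replicate 1. The gut receptors Ccr9 (-0.23, adjusted p = 0.461) and Gpr15 (-0.48, adjusted p = 0.191), the retention marker Cd69 (0.34, adjusted p = 0.175) and the factor Klf2 (-0.83, adjusted p = 0.216) were not called.

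**Figure D4:**
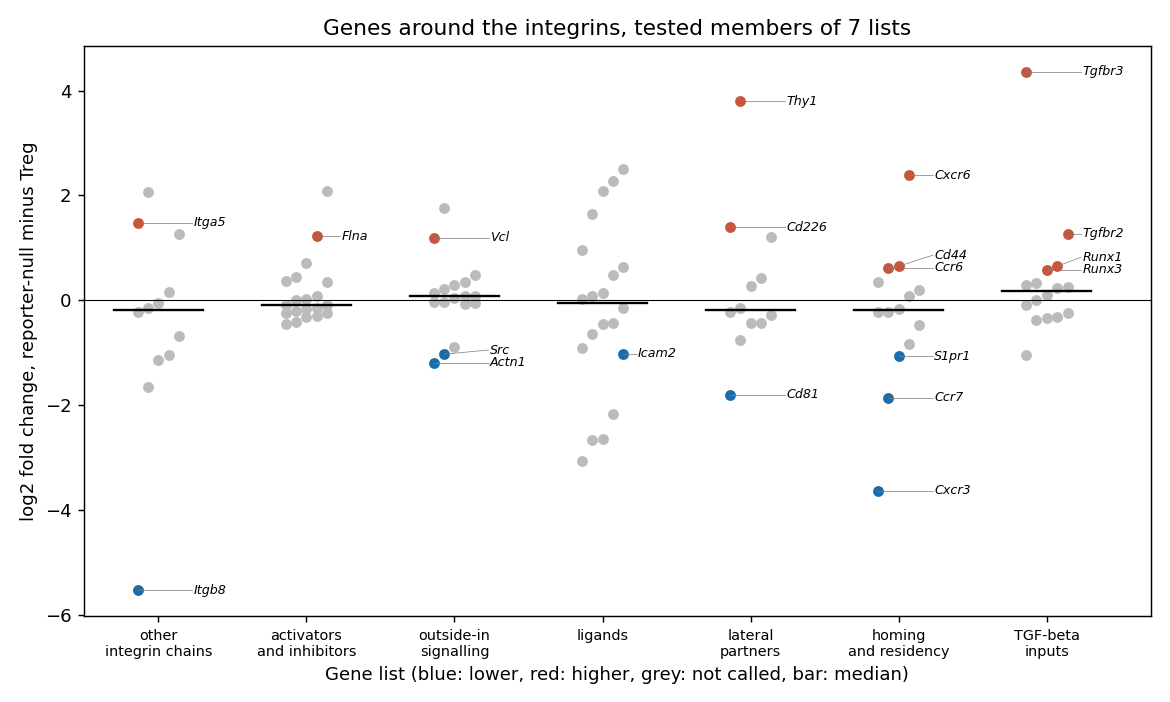
Log2 fold change (null minus Treg) of the tested genes of 7 lists around the integrins, with called genes in colour and named and the list median as a bar. The list of homing and residency genes holds 6 called genes and that of TGF-beta inputs 4, all of them higher, while the medians of the 7 lists lie between -0.19 and 0.17.

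The genes whose pattern was most like that of Itgae were sought by Euclidean distance between gene-centred log2 CPM over the 5 libraries, among 9099 genes whose average log2 CPM was 3 or more. The nearest were Phlpp1 (distance 0.64), Ky (0.652), Acod1 (0.696), Nrn1 (0.936) and Nid2 (0.946). Ky stood at 112 and 89.6 CPM in Treg cells and at 4.44, 3.89 and 6.27 CPM in null cells. Nrn1, which encodes neuritin, was 34.1 and 38.7 CPM against 2.11, 1.39 and 2.85 CPM. Nid2, which encodes the basement membrane protein nidogen 2, was 19.1 and 20.9 CPM against 1.3, 0.864 and 1.25 CPM. The log2 fold changes of the 5 genes ran from -5.03 to -4.10, around the value of Itgae. This closeness follows from choosing the genes by distance over the same libraries and is no separate evidence. Ky, Acod1, Nrn1 and Nid2 met the minimum average level only through their Treg libraries.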

How the data were processed

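Polyadenylated RNA was amplified with SMART-Seq v4, made into libraries with the KAPA Hyper Prep kit and sequenced with paired ends on an Illumina HiSeq, per the labels' protocols. The authors deposited whole-number read counts per gene symbol in 1 table, not normalised, judging by the values. The submitters' processing notes list DESeq. No source used here gives the aligner, build, annotation or strand setting. Amplified reads carry no molecular identifiers. Of 24421 rows 4 carried no gene name (0.0034% to 0.00492% of counts) and were left out. No replicate pair agreed within sampling noise (chi-square per degree of freedom at least 16.9).

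With R 4.3.3, genes with low counts were removed by filterByExpr (minimum count 10, total 15). The others were scaled with TMM and compared with the robust quasi-likelihood F test of edgeR 4.0.16 with Benjamini-Hochberg adjustment. The SE is the fold change divided by the square root of F. Chain ratios used counts plus 0.5 and an exact permutation test. Alternatives were DESeq2 1.42.0, limma-voom (limma 3.58.1), other size factors (RLE, upper quartile), no filter, a CPM of 1 in 2 libraries, each library left out, both libraries described with the number 2 left out, and 2 replicate blocks. Lengths, positions and overlaps are from GENCODE M21 (GRCm38), which may differ from the authors' annotation.

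The chains and gene lists were chosen with earlier results of these data known. Named were the 10 chains, every other chain tested, up to 4 called genes of smallest p per list and direction, fixed genes of TGF-beta input, activation and residency, Foxp3, and the 5 nearest to Itgae. A gene of the homing list is not reported here and was left out of its counts.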

Additional observations from a re-analysis of the deposited data

How the results depend on the processing

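The 3 integrin calls held with both other size factors, DESeq2, limma-voom, no filter, the CPM filter, the block by description number and without both libraries described with the number 2. With 1 library left out 2 to 3 held. Itgae kept its call in all 14 alternatives. The number of genes called over the whole table, 1245 as reported, was 2323 with DESeq2, 2152 without both libraries described with the number 2 (which leaves 1 Treg library, assumed to vary like the others) and 341 (without Treg replicate 1) to 2035 (without null replicate 2) with 1 library left out. It was 405 without Treg replicate 2 and 467 without null replicate 1.

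The labels do not say that libraries with the same number share an animal. Deviations from the group means correlated at -0.511 and -0.602 within title numbers and at 0.602 and 0.481 within description numbers, but also at 0.511 for Treg replicate 2 with null replicate 1, which share no number. With 2 Treg libraries the deviations are mirror images, so these values do not establish a pairing. A replicate block by title number left 24 genes and 1 of the 9 chains (Itgae) called, with Itga6 at -0.97, Itgb3 at 1.69, Itgb7 at 0.01, Itga2 at -0.18 and Itga3 at 0.00. Under this block the calls were 0 of the other integrin chains, 0 activators, 0 signalling genes, 0 ligands, 1 lateral partner, 1 homing gene and 0 TGF-beta inputs. The replicate block by description number called 2 activators and 6 ligands, turned Itga3 to 0.04 and Itgam to 0.18, and ended the calls of Ccr6 (0.57, adjusted p = 0.0697) and Runx3 (0.56, adjusted p = 0.0759). Without both libraries described with the number 2 the adjusted p was 0.0924 for Runx3 and 0.117 for Cd44.

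DESeq2 called 4 other chains, 2 activators and 4 ligands, while over the whole table it called 2323 of 14164 genes, beside 1245 as reported. Without both number 2 libraries 4 ligands and 5 lateral partners were called, and Itga7 was -0.45, Itgb4 -0.94 and Ccr9 0.07. With limma-voom Itgb4 was -0.28. Leaving out 1 library gave 1 to 3 other chains, 0 to 2 activators, 0 to 5 signalling genes, 0 to 3 ligands, 1 to 5 lateral partners, 2 to 6 homing genes and 2 to 7 TGF-beta inputs. Over the same settings the log2 fold change ran from -0.20 to 0.04 for Itgb7, -0.33 to 0.05 for Itgb1, -0.18 to 0.42 for Itga2, -1.24 to -0.86 for Itga6, -0.39 to 0.08 for Itga3, -0.29 to 0.82 for Itga7, -1.04 to 0.73 for Itgam and -1.65 to 1.97 for Itgb4. The ratio difference ran from -0.61 to 0.02 for Itga1 to Itgb1 and from -0.13 to 0.57 for Itga2 to Itgb1. The cause of these shifts was not tested. With 2 against 3 libraries the chain ratios cannot reach an exact permutation p below 0.1. Depth limits the low chains: Itga1 had 42 to 90 counts per library, Itga2b 5 to 22 and Itgax 2 to 19.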

Other observations

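Genes of fibrinogen and vitronectin, plasma proteins that bind beta 3 integrins and are made in the liver, had counts in all libraries. Fgb stood at 79.7 and 26.3 CPM in Treg replicates 1 and 2 and at 15.5, 7.10 and 3.03 CPM in null replicates 1, 2 and 3. Fgg stood at 57.5 and 17.8 CPM against 8.77, 3.22 and 1.47 CPM, Fga at 4.34 and 2.22 CPM against 1.57, 0.528 and 0.089 CPM, and Vtn at 18.03 and 6.80 CPM against 3.95, 1.296 and 0.623 CPM. In these 4 genes every Treg library lay above every null library, Treg replicate 1 was highest and null replicate 3 lowest. Over all genes tested, the groups did not overlap for 40.8%. None was called (log2 fold changes -3.07 to -2.17, adjusted p 0.143 to 0.274). These genes were singled out after their values were seen.

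Lamc1, which encodes the laminin gamma 1 chain, was at 392 and 610.0 CPM in Treg cells and at 747, 483 and 868 CPM in null cells (0.48, adjusted p = 0.439), whereas the alpha chain genes Lama1, Lama2, Lama4 and Lama5 did not exceed 2.88 CPM in any library. Itgb6, an epithelial integrin chain, was 1.92 CPM in null replicate 2 and at most 0.380 CPM in the other libraries.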
